A study of Sus scrofa with 2 samples.

Results

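Keratin 8 (KRT8), keratin 18 (KRT18), keratin 20 (KRT20), vasoactive intestinal peptide (VIP), chromogranin A (CHGA), the channel gene PIEZO2, secretogranin II (SCG2) and SNAP25 were followed in pig skin cells. These are 8 of the 31908 genes in the deposited count matrices, chosen by symbol as simple epithelial keratins and genes of Merkel cells, with earlier results of these data known. Their levels are therefore given as a description. The cells came from dorsal skin of healthy male farm pigs and were sequenced in droplets (10x Genomics 3′ kit), where unique molecular identifiers (UMIs) mark copies of one molecule. The fresh library holds untreated cells, the cryopreserved library holds cells thawed after freezing in 90% FBS + 10% DMSO, and dead cells were sorted out before loading. The extraction text of the fresh sample also describes freezing, while its title and treatment mark it as fresh. Whether 1 animal gave both libraries is not stated in the labels or methods. No spread between samples exists at 1 library per condition, so no test was run. Each interval is a 95% interval for counting error only.

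The fresh library held 4379 barcodes with 53271738 UMIs (median 9686 per barcode), and the cryopreserved library 4860 barcodes with 42217632 UMIs (median 7622). All barcodes were used. The maxima of the study (4500 genes, 30000 UMIs and 10% mitochondrial UMIs) would keep 63.4% of the fresh and 86.9% of the cryopreserved barcodes. The libraries shared 6 barcode sequences. Clustering without the 8 genes gave 27 clusters, which are called by number, with a name such as fibroblast-like where marker genes gave one.

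Simple epithelial keratins form filaments in single-layered epithelia, where KRT8, a type II keratin, pairs with KRT18, a type I keratin. Interfollicular keratinocytes use KRT5 and KRT14 instead. Merkel cells are the touch-sensing cells of the epidermis: they carry KRT8, KRT18 and KRT20, sense pressure through the mechanically gated channel PIEZO2, and hold dense-core granules with chromogranins and neuropeptides that are released with the help of SNARE proteins such as SNAP25. VIP is one of these neuropeptides.

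The 8 genes lie on 7 chromosomes, and KRT8 and KRT18 are neighbours on chromosome 5. On Sscrofa11.1 (RefSeq annotation), KRT8 is on the minus strand at chr5:18172423-18180277 and KRT18 on the plus strand at chr5:18217686-18221432, with 37408 bases between them. No annotated gene overlaps any of the 8. The 250 bases before the annotated gene start are shown for 5 of the 8, the keratin pair and the 3 granule and peptide genes. All 8 genes, and not only these 5, were found together in 1 cryopreserved barcode. Capitals mark matches on either strand to 3 motifs. They are TATAAA (the TATA box), the E-box CANNTG, and TGACGTCA, the full cAMP response element. The windows are chr5:18180278-18180527 (minus strand), chr5:18217436-18217685 (plus), chr1:13620251-13620500 (minus), chr7:114345292-114345541 (plus) and chr15:125426304-125426553 (minus), each written 5′ to 3′ along its gene.
KRT8: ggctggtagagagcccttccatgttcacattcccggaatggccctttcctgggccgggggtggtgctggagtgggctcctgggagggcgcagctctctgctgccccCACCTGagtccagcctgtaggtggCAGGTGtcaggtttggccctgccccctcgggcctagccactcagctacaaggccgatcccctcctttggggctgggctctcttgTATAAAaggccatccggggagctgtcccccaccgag
KRT18: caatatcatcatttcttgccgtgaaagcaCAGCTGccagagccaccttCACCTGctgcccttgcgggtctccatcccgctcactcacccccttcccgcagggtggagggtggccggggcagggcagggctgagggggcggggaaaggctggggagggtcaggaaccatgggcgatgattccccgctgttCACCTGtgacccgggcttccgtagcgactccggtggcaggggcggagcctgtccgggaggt
VIP: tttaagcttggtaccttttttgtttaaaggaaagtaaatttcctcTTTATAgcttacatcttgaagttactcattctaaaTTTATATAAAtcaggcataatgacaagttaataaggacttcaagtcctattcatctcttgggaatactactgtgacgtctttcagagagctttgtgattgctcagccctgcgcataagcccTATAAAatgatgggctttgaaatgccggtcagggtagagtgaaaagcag
CHGA: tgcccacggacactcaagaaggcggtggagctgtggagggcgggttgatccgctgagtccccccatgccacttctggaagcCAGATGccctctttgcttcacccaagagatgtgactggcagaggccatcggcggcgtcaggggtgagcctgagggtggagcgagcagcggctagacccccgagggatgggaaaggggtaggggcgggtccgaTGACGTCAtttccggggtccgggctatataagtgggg
SCG2: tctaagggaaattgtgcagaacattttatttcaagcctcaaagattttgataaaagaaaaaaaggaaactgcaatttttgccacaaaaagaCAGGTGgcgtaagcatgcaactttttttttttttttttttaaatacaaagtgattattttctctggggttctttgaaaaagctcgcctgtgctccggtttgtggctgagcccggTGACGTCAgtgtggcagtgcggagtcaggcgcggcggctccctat
The granule genes CHGA and SCG2 both held TGACGTCA, with its first base at -37 and -45 from the gene start. None of the other 6 members did, and 1.70% of the 19569 promoters of this length held it. TATAAA was found in KRT8, with its first base at -36, and in VIP, against 9.77% of promoters. CANNTG was found in all of the 8 but VIP and PIEZO2, with 1 to 3 matches each and the most in KRT18. At least 1 match was held by 61.9% of promoters, and the share with 3 was not counted. A match describes letters in this window and no more. Only these forms were searched, so shorter or variant forms of a motif were not marked or counted.

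A 3′ kit counts transcript ends, so the levels are not scaled by gene length. All 8 genes were detected, and 5 of them (KRT8, VIP, CHGA, PIEZO2 and SNAP25) had at least 20 UMIs over both libraries. KRT8 had 168 UMIs in the fresh library (3.15 CPM, interval 2.69 to 3.67, where CPM is UMIs per 1000000 UMIs of the same library, cluster or barcode) and 209 in the cryopreserved library (4.95, interval 4.30 to 5.67). KRT18 had 1 fresh and 13 cryopreserved UMIs. KRT20 had 2 and 7. All of these keratin counts were higher in CPM in the cryopreserved library, and those of KRT18 and KRT20 are too low for a stable ratio. VIP had 0 UMIs in the fresh library, which allows up to 0.0563 CPM by the limit of 3 UMIs, and 49 in the cryopreserved library (1.16 CPM, interval 0.859 to 1.53). CHGA had 15 and 17 UMIs, and SCG2 had 1 and 6. The granule genes were thus at a few UMIs in whole libraries, whereas the remaining pair was detected more widely. SNAP25 had 170 UMIs in the fresh library (3.19 CPM, interval 2.73 to 3.71), and the cryopreserved one held 181 (4.29, interval 3.69 to 4.96). PIEZO2 had 1977 UMIs in the fresh library (37.1 CPM, interval 35.5 to 38.8), and the cryopreserved one held 1130 (26.8, interval 25.2 to 28.4). PIEZO2 was the only member with a lower level in the cryopreserved library.

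**Figure D1:**
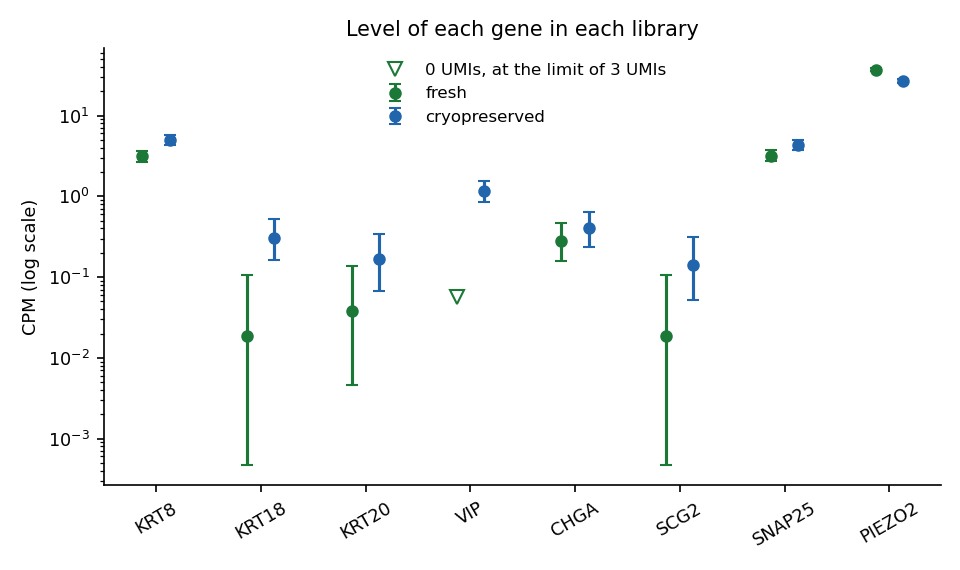
Level of each gene in each library, in CPM of the summed UMIs on a log axis, with points for the estimate and bars for the exact Poisson 95% interval. The open triangle stands for VIP in the fresh library, with 0 UMIs, at the limit of 3 UMIs, and PIEZO2 is highest at 37.1 (fresh) and 26.8 (cryopreserved).

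As a log2 ratio of CPM, cryopreserved over fresh, KRT8 was at 0.65 (ratio 1.57, interval 1.28 to 1.93). SNAP25 was at 0.43 (ratio 1.34, interval 1.08 to 1.67). CHGA was at 0.52 (ratio 1.43, interval 0.672 to 3.08). PIEZO2 was at -0.47 (ratio 0.721, interval 0.670 to 0.776). The intervals of KRT8, SNAP25 and PIEZO2 leave out a ratio of 1 and that of CHGA does not. Without the top barcode of each library, KRT8 was at 1.02 and CHGA at -0.44, so single barcodes moved both. For VIP, the cryopreserved level was 20.6 times the limit of 3 UMIs in the fresh library. All 49 VIP UMIs were in 1 barcode, so this is no lower bound for a difference between the libraries. Of the genes under 20 UMIs, KRT18 was at 4.04 (ratio 16.4, interval 2.46 to 697), KRT20 at 2.14 (ratio 4.42, interval 0.841 to 43.6) and SCG2 at 2.92 (ratio 7.57, interval 0.919 to 348). Over the 17043 genes with at least 20 UMIs, the median log2 ratio was -0.01 and the median of its size 0.23. A log2 ratio of at least 1 was reached by 2.65% of these genes in the higher direction and by 2.24% in the lower. Of the 5 members in this set, none was past 1 in the lower direction. Only VIP was counted as past 1 in the higher, through its 0 fresh UMIs and 1 barcode, and it has no ratio. Fewer cells with a gene and less of its RNA per cell cannot be told apart in such sums.

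The sums of KRT18, KRT20, VIP, CHGA and SCG2 turned on 1 cryopreserved barcode. It held UMIs of all 8 genes. There were 49 UMIs of VIP, 19 of KRT8, 10 of KRT18, 10 of CHGA, 7 of KRT20, 6 of SCG2, 6 of SNAP25 and 3 of PIEZO2. These 110 UMIs were 1.39% of its 7902 UMIs. It is the only barcode with VIP. It held 100% of the cryopreserved UMIs of VIP, KRT20 and SCG2, 76.9% of those of KRT18 and 58.8% of those of CHGA. It held 9.09% of those of KRT8, 3.31% of those of SNAP25 and 0.265% of those of PIEZO2. VIP, KRT20, SCG2 and KRT18 were thus found mostly in this barcode, and KRT8, SNAP25 and PIEZO2 mostly elsewhere, with CHGA between them. Among the 17043 genes with at least 20 UMIs, 0.00587% had every UMI in 1 barcode, which is VIP alone. At least 25% of the UMIs were in 1 barcode for 1.46% of these genes and at least 10% for 5.87%. Of the 5 members, VIP and CHGA (31.2%) passed 25%, KRT8 (17.2%) passed 10%, and SNAP25 (9.97%) and PIEZO2 (0.869%) did not.

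No other barcode came near it. Counting the 6 members other than KRT8 and KRT18, 0 of 4379 fresh barcodes held 3 or more, which allows a share of up to 0.0685%, and 1 of 4860 cryopreserved barcodes did (0.0206%, exact binomial interval 0.000521 to 0.115%). The shares of the libraries are not separated by these intervals. At 2 of the 6 there were 5 fresh and 5 cryopreserved barcodes. Of all 8 genes, the next highest number in a barcode was 3, in 1 fresh and 1 cryopreserved barcode. Outside this barcode, the highest count of KRT18 in a barcode was 2, that of KRT20 was 1, that of SCG2 was 1 and that of CHGA was 3, the last in a fresh barcode of 55580 UMIs. For KRT8, by contrast, 3 fresh and 5 other cryopreserved barcodes held at least the 19 UMIs seen here.

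**Figure D2:**
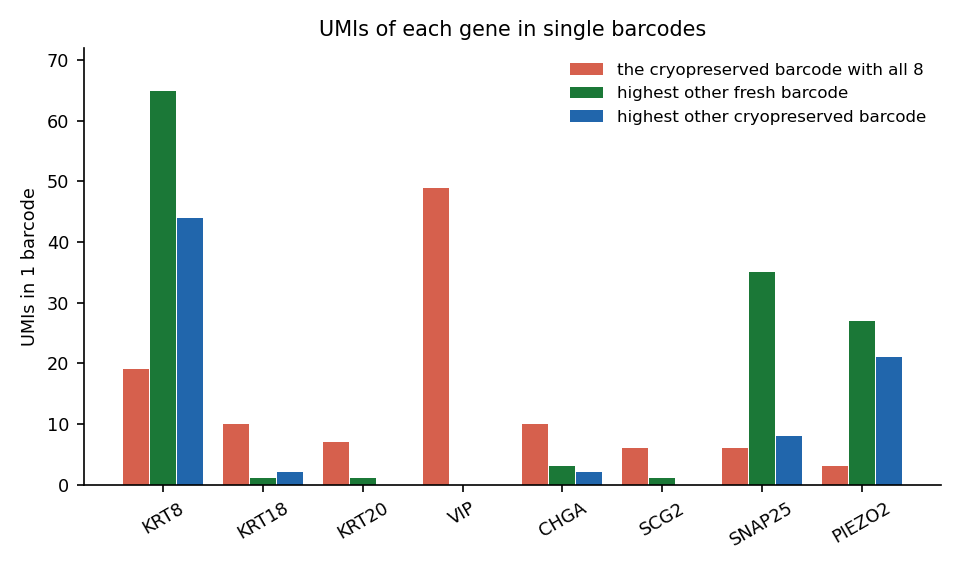
UMIs of each gene in the cryopreserved barcode with all 8 genes (red) and in the highest other barcode of the fresh (green) and cryopreserved (blue) library. VIP stands at 49 in the barcode and at 0 elsewhere, whereas KRT8, SNAP25 and PIEZO2 reach 65, 35 and 27 in other barcodes.

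The barcode was of ordinary depth, with 2763 genes and 3.53% mitochondrial UMIs, within the maxima of the study, and its sequence was not among the fresh barcodes. It fell in cluster 11, whose cryopreserved median was 8620 UMIs. Its most abundant transcript was CCER2, a coiled-coil glutamate-rich protein gene, with 794 UMIs against 16 in all other barcodes. Next came ENSSSCG00000002972, given as SARS2 in the gene table, with 703 against 5. CCER2 and SARS2 are next to each other on chromosome 6, at 47712760 to 47717225 and 47717363 to 47728394. Whether reads from one were counted for the other was not tested.

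Of the 15 genes with the highest ratio of level to the other barcodes at 5 or more UMIs, a minimum chosen after the values were seen, CCER2 and SARS2 came first. CARTPT, a neuropeptide precursor, had 11 UMIs there and 1 elsewhere. HEPACAM2 had 10 against 20 elsewhere, INA, a neuronal intermediate filament gene, had 5 against 7, and CALY had 5 against 3. ENSSSCG00000035837, given as NPB (neuropeptide B) in the gene table, had 6 against 14. PCP4 had 5 against 44, and NFASC, a cell adhesion gene of axons, 6 against 44. CLDN10, a claudin gene, had 9 against 95, the potassium channel gene KCNH8 9 against 146, SORCS1 5 against 57 and CFAP61 6 against 112, and 2 genes had no symbol. No list was fixed for these genes and no theme was tested. Among genes with 20 or more UMIs in it, SORBS2 (23 UMIs) was at 150 times, the potassium channel gene KCND2 (23 UMIs) at 81.7 times, TUBB4B (45 UMIs) at 13.3 times and S100A6 (171 UMIs) at 8.24 times the level of the other barcodes. The planned list of genes shared by barcodes with 3 or more of the 6 members could not be formed, because only 1 barcode qualified.

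The Merkel name was checked with marker genes other than the 8. Of 8 such genes, 6 were found by symbol, and none had a UMI in the barcode, where HES6, a regulator on the longer list given later, had 1. ATOH1 and POU4F3, transcription factors of Merkel cells and of hair cells, had 0 UMIs in both libraries. ISL1 had 1 UMI in each library, SYP 8 and 5, CHGB 13 and 12, and GFI1 78 and 79, and SOX2 and INSM1 were not found by symbol. Low levels of these genes can go undetected in 7902 UMIs, so their absence from the barcode does not settle the name. The barcode is therefore called by its genes and not by a cell type. Its KRT5 count was 5 UMIs (633 CPM, against 11134 in cluster 11). KRT10, a keratin of upper epidermal layers, and EPCAM, an epithelial adhesion gene, had 3 UMIs each, and the sebaceous genes SCD, FASN and MGST1 had 8 together. Fibroblast, lymphatic, mast cell and Schwann cell lists each had a single UMI in it, from 1 gene each. The lists of smooth muscle, endothelial, myeloid, dendritic, T or NK, B cell, melanocyte, erythrocyte and dividing cell markers were at 0, which in 7902 UMIs leaves low levels undetected.

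Without this barcode, a choice made after seeing the data, the log2 ratio was 0.51 for KRT8, 0.38 for SNAP25, -0.48 for PIEZO2, 1.92 for KRT18 (1 and 3 UMIs, ratio interval 0.304 to 199) and -0.76 for CHGA (15 and 7 UMIs, ratio interval 0.203 to 1.53). The higher CHGA level of the cryopreserved library thus rested on 1 barcode. KRT20, SCG2 and VIP had 0 cryopreserved UMIs left.

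KRT8 was detected in 17 of 4379 fresh barcodes (0.388%, interval 0.226 to 0.621%) and 21 of 4860 cryopreserved barcodes (0.432%, interval 0.268 to 0.660%). In T or NK-like clusters, which should lack it, KRT8 had no UMI in any of 157 fresh or 261 cryopreserved barcodes (median 6528 and 4806 UMIs), which allows up to 1.91% and 1.15%. These reference clusters are too small to set a background below the shares seen. The KRT8 UMIs were not spread evenly over its 38 barcodes. In the fresh library 65 of the 168 UMIs were in 1 barcode, and in the cryopreserved library 44 of the 209. Of the 38 barcodes, 16 held 5 or more KRT8 UMIs, a limit set after the values were seen, and the other 22 held 1 to 3.

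The 16 barcodes fell into fibroblast-like and KRT5-bearing clusters. Apart from the barcode with all 8 genes, 7 were in the fibroblast-like clusters 0 and 6, with 13 to 82 UMIs of COL1A1 and 0 or 1 UMI of KRT5. They were 3 fresh barcodes (65, 20 and 8 KRT8 UMIs) and 4 cryopreserved barcodes (44, 34, 28 and 6). They held 55.4% of the fresh and 53.6% of the cryopreserved KRT8 UMIs. The groups were split by whether COL1A1 or KRT5 had more UMIs in a barcode, so the counts of these genes follow in part from that split. Most of the KRT8 count in each library was in these 7 barcodes, but this majority rested on 1 barcode per library. Of their KRT8 UMIs, 65 of 93 fresh and 44 of 112 cryopreserved ones were in a single barcode. Their COL1A1 level, 2126 to 10380 CPM, was below that of their clusters, at 15126 (fresh) and 17195 (cryopreserved) in cluster 0 and at 29496 and 28314 in cluster 6. The other 8 were in clusters 4 and 11, with 8 to 96 UMIs of KRT5 and 0 to 2 of COL1A1. They were 4 fresh barcodes (27, 15, 13 and 6 KRT8 UMIs) and 4 cryopreserved barcodes (31, 20, 6 and 6), and held 36.3% and 30.1% of the KRT8 UMIs. Their KRT5 level, 223 to 5915 CPM, was below that of clusters 4 (12738 and 13354) and 11 (10307 and 11769), and the lowest value was under the 245 CPM of cluster 6. Both groups of barcodes were present in both libraries.

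**Figure D3:**
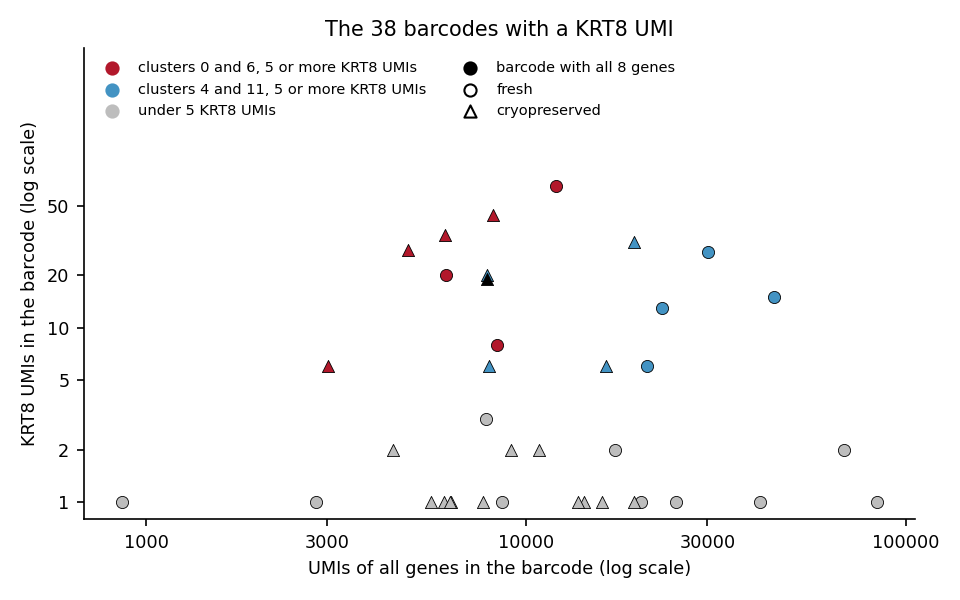
KRT8 UMIs against the UMIs of all genes for the 38 barcodes with a KRT8 UMI, both on log axes, with circles for fresh and triangles for cryopreserved barcodes. Barcodes with 5 or more KRT8 UMIs hold 6 to 65 in clusters 0 and 6 (red) and 6 to 31 in clusters 4 and 11 (blue), and the barcode with all 8 genes (black) 19.

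Per UMI, the KRT8 levels of the groups overlapped, at 953 to 5734 CPM in the 7 barcodes of clusters 0 and 6 and 288 to 2532 in the 8 of clusters 4 and 11. The highest values were 5734, 5560 and 5374 KRT8 CPM in 3 cryopreserved barcodes of 4883, 6115 and 8188 UMIs, and 5411 in a fresh barcode of 12012 UMIs. The barcode with all 8 genes was at 2404. All 7 barcodes in clusters 0 and 6 were within the maxima of the study, as were 3 of the 8 in clusters 4 and 11, all 3 cryopreserved. With the maxima applied, 101 of the 168 fresh and 176 of the 209 cryopreserved KRT8 UMIs remained.

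The 7 KRT8 barcodes of clusters 0 and 6 shared other genes that were rare in the barcodes of these clusters without a KRT8 UMI. ITGB4, an integrin gene of hemidesmosomes and of perineurial and Schwann cells, was found in 7 of 7 (43 UMIs), and those 1247 barcodes held 73. Of the 43 UMIs, 51.2% were in 1 barcode. NGFR, the low-affinity nerve growth factor receptor gene, was found in 6 of 7 (34 UMIs against 25). THBS4, a matrix gene, was found in 5 of 7 (56 UMIs against 77), and SFRP1, a secreted Wnt antagonist gene, in 6 of 7 (31 against 137). KCNIP1 (24 UMIs in 3 barcodes) had 83.3% of its UMIs in 1 barcode. NGFR and THBS4 also had 17 and 19 UMIs in the 8 KRT8 barcodes of clusters 4 and 11, in 3 barcodes each. These genes were picked after seeing the values, and no test was made of them.

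In the 8 KRT8 barcodes of clusters 4 and 11, IFNE, an interferon gene of epithelia, was found in 4 of 8 (26 UMIs against 21 in the 953 barcodes of these clusters without a KRT8 UMI), and GJB6, the connexin 30 gene, in 4 of 8 (138 against 283). A single barcode held 57.7% of these 26 IFNE UMIs and a single one 63.0% of these 138 GJB6 UMIs. ETV5, an ETS factor gene, was found in 4 of 8 (34 against 47), and 73.5% of its UMIs in these barcodes came from 1 of them. FHOD3, a formin gene, was the most widely shared, in 7 of 8 (52 against 93).

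By cluster, KRT8 was highest in cluster 11 in both libraries, at 25.3 CPM in the fresh library (51 UMIs, interval 18.8 to 33.2) and at 33.9 in the cryopreserved library (89 UMIs, interval 27.2 to 41.7). Cluster 11 is a KRT5-bearing cluster. Its first leading genes, CCER2 and ENSSSCG00000002972, come from the barcode with all 8 genes, and they are followed by GJB6, HSD17B2, ESRRG, PTHLH and SOX9, the last a transcription factor gene of hair follicle and gland progenitors. The marker rule named it epidermal stem-like, with 6 markers of that list raised. None of its leading genes was an epidermal marker on the list used, and it is called by number here. The name fibroblast-like of clusters 0 and 6 likewise rests on raised markers, 8 in each, and not on their leading genes. Cluster 6 was next at 19.3 and 18.1. Cluster 0, at 2.12 and 10.6, came after it in the cryopreserved library and over both, while in the fresh library the unnamed cluster 1 (6.18, 3 UMIs) and cluster 4 (3.24, 16 UMIs) were above it. By UMI counts, clusters 11 and 6 differed beyond counting error in the cryopreserved but not in the fresh library, and clusters 6 and 0 differed in both. These intervals take UMIs as separate counts. KRT8 was in only 2 fresh and 2 cryopreserved barcodes of cluster 6 and in 1 and 3 of cluster 0. No order of the clusters is read from so few barcodes. Together the 3 clusters held 85.7% of the fresh and 97.1% of the cryopreserved KRT8 UMIs. Within cluster 0 the ratio, cryopreserved over fresh, was 4.98 (interval 2.31 to 12.3, from 8 and 42 UMIs, 34 of the latter in 1 barcode). Within clusters 11 and 6 it was 1.34 (interval 0.939 to 1.93) and 0.942 (interval 0.678 to 1.30).

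These cluster levels rested on few barcodes, 7 of 148 fresh and 11 of 268 cryopreserved ones in cluster 11. Without the top KRT8 barcode of cluster 11 in each library, its level was 12.1 and 22.2, and without that of cluster 6 the level there was 4.54 and 7.07. With the maxima of the study, cluster 11 was at 2.98 (interval 0.812 to 7.63) and 25.3, and cluster 6 at 41.9 (interval 33.4 to 51.8) and 22.0, so the fibroblast-like cluster 6 was then above cluster 11 in the fresh library. The values of cluster 6 under these settings were added after seeing the data. Cutting the clusters more finely (resolution 1.2 in place of 0.8) moved the cryopreserved maximum to a cluster of 81 fresh and 113 cryopreserved barcodes, all from clusters 0 and 6, at 47.1 (42 UMIs in 3 barcodes, interval 33.9 to 63.6). In the fresh library that cluster held 8 KRT8 UMIs, all in 1 barcode (interval 3.88 to 17.7 CPM). The finer cluster held only 3 of the 7 barcodes of clusters 0 and 6 with 5 or more KRT8 UMIs. KRT8 was in 1 of its 81 fresh and 3 of its 113 cryopreserved barcodes, so its leading genes describe mostly barcodes without KRT8. EPHA3, a receptor gene for ephrins, led it, at 226 CPM against 1.91 elsewhere, and NGFR was among its 10 leading genes at 26.4 against 1.14. The neurotrophin gene NTF3 and its receptor gene NTRK3 were among them too, at 76.3 against 5.03 and 51.1 against 3.29.

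KRT18 was found in no barcode without KRT8. The 1 fresh barcode (1 UMI of KRT18 and 8 of KRT8) was in cluster 0. The 3 cryopreserved barcodes were the one with all 8 genes (10 UMIs), one in cluster 0 (2 UMIs, with 34 of KRT8) and one in cluster 6 (1 UMI, with 44 of KRT8). In the other direction, KRT18 was found in 5.88% of the fresh and 14.3% of the cryopreserved KRT8 barcodes. Outside the barcode with all 8 genes there were 4 UMIs of KRT18 beside 358 of KRT8. Both KRT18 barcodes left in the cryopreserved library were the 2 with most KRT8 in that library.

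KRT20 was found in 2 fresh barcodes with 1 UMI each, one in cluster 11 and one in the fibroblast-like cluster 2, the latter of 38806 UMIs. SCG2 was found in 1 fresh barcode with 1 UMI, also in cluster 2 and of 55225 UMIs. Neither barcode in cluster 2 was within the maxima of the study. Without the barcode with all 8 genes, KRT20 and SCG2 are thus single UMIs of the fresh library. CHGA was found in 13 fresh barcodes, 12 of them with 1 UMI, and in 7 cryopreserved barcodes. Its fresh UMIs were led by the smooth muscle or pericyte-like cluster 15 (4 UMIs in 4 of 122 barcodes) and by the differentiated keratinocyte-like cluster 19 (4 UMIs in 2 of 103 barcodes). In the cryopreserved library 13 of its 17 UMIs were in cluster 11, in 3 of 268 barcodes. T or NK-like clusters held 1 CHGA UMI in 261 cryopreserved and 0 in 157 fresh barcodes. CHGA had fewer barcodes but a higher sum in the cryopreserved library, so no order was read from either.

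SNAP25, a plasma membrane SNARE gene, was the most widely detected granule release gene of the 8, in 71 fresh barcodes (1.62%, interval 1.27 to 2.04%) and 92 cryopreserved barcodes (1.89%, interval 1.53 to 2.32%). In T or NK-like clusters it was in 0 of 157 and 0 of 261, which allows up to 1.91% and 1.15%. The fresh limit is above the share seen in the fresh library, so it sets no background below that share. After thinning each barcode to 1000 UMIs, which drops 365 shallower barcodes of the fresh and 198 of the cryopreserved library, the shares were 0.249% (interval 0.120 to 0.458%) and 0.472% (interval 0.296 to 0.714%). Cluster 11 was its highest cluster in both libraries, as it was for KRT8. There SNAP25 was in 31 of 148 fresh barcodes (20.9%) at 31.2 CPM (interval 24.0 to 40.0), and in 53 of 268 cryopreserved barcodes (19.8%) at 44.1 (interval 36.5 to 52.9). Unlike KRT8, it was thus spread over many of these barcodes, and its top barcode there held 6 fresh and 8 cryopreserved UMIs. Of the 12355 genes with at least 200 UMIs, 1.03% were highest in cluster 11 in both libraries, and 54.9% were highest in the same cluster in both, as KRT8, SNAP25 and PIEZO2 were.

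Cluster 19, differentiated keratinocyte-like by the marker rule, was next at 22.2 CPM (fresh) and 10.2 CPM (cryopreserved). KRT35 of the hair shaft and UBE2C and CDC20 of mitosis led it. Of its 64 fresh SNAP25 UMIs, 35 were in 1 barcode of 83933 UMIs and 17 in another of 35998 UMIs, and neither was within the maxima of the study. The endothelial-like cluster 3 came after it, at 6.42 and 5.76. Clusters 11 and 19 did not differ beyond counting error in the fresh library and did in the cryopreserved library, and clusters 19 and 3 did the reverse. Within cluster 11 the ratio, cryopreserved over fresh, was 1.41 (interval 1.03 to 1.95), and within cluster 19 it was 0.461 (interval 0.261 to 0.779). Cluster 11 held 3.79% of all fresh UMIs and 6.23% of all cryopreserved UMIs, and its part in the SNAP25 ratio of the libraries was not tested. With the maxima of the study, which keep 78 fresh and 150 cryopreserved UMIs, the log2 ratio of the libraries was 0.76 in place of 0.43.

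**Figure D4:**
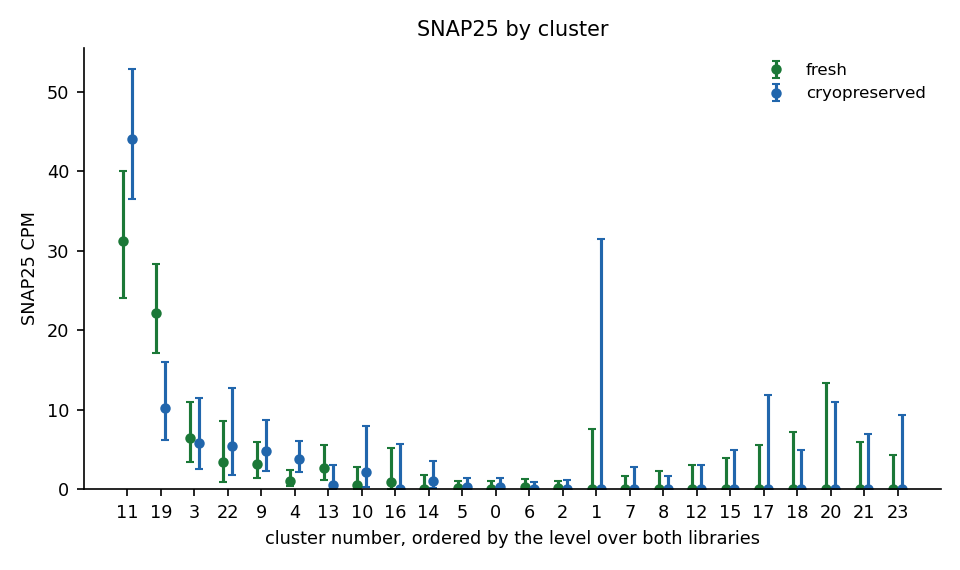
SNAP25 CPM by cluster for the 24 clusters with at least 20 barcodes in each library, ordered by the level over both, with exact Poisson 95% intervals. Cluster 11 is highest at 31.2 (fresh) and 44.1 (cryopreserved), followed by cluster 19 at 22.2 and 10.2.

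PIEZO2 was detected far more widely than the other members, in 667 fresh barcodes (15.2%, interval 14.2 to 16.3%) and 529 cryopreserved barcodes (10.9%, interval 10.0 to 11.8%). In T or NK-like clusters it was in 2 of 157 fresh barcodes (1.27%) and 3 of 261 cryopreserved barcodes (1.15%), at median depths of 6528 and 4806 UMIs. Thinned to 1000 UMIs the shares of the libraries were 2.67% (interval 2.19 to 3.21%) and 2.17% (interval 1.77 to 2.63%), and these intervals overlap. Fibroblast-like clusters held 73.6% of the fresh and 72.5% of the cryopreserved PIEZO2 UMIs, and 48.9% and 44.1% of the UMIs of all genes. The lymphatic-like cluster 16 held 17.5% and 17.0% of its UMIs against 2.03% and 1.53% of those of all genes. Most PIEZO2 RNA was thus in dermal clusters, and the KRT5-bearing cluster 11 held 4 fresh and 18 cryopreserved UMIs of it.

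The lymphatic-like cluster 16, led by MMRN1 and the lymphatic regulator gene PROX1, had the highest PIEZO2 level in both libraries. It was at 320 CPM in the fresh library (interval 287 to 356, in 67 of 124 barcodes) and at 297 in the cryopreserved library (interval 256 to 342, in 56 of 146 barcodes). Of the 12355 genes, 3.72% were highest there in both libraries. The share of its barcodes with PIEZO2 was 54.0% and 38.4%, at median depths of 6740 and 3720 UMIs, and 19.7% and 19.1% after thinning. Cluster 5, a fibroblast-like cluster led by CTHRC1 and ASPN, was next at 115 and 94.9. Over both libraries, clusters 7, 12 (smooth muscle or pericyte-like) and 6 followed, at 72.4, 62.4 and 54.4 in the fresh and 47.2, 47.4 and 42.1 in the cryopreserved library, where the fibroblast-like cluster 22 (53.5, 49 UMIs) was above them. Cluster 16 exceeded cluster 5, and cluster 5 exceeded cluster 7, beyond counting error in both libraries, while clusters 7 and 12, and clusters 12 and 6, did not differ in either. In the smooth muscle or pericyte-like cluster 15, with contractile genes such as MYH11 and CNN1, PIEZO2 had 0 UMIs in both libraries, as it did in the mast-like cluster 20.

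**Figure D5:**
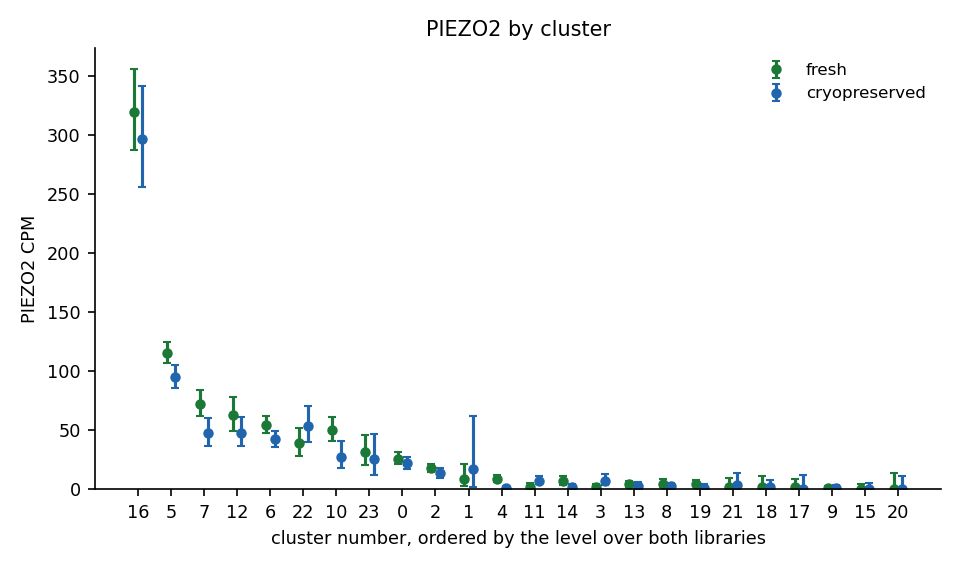
PIEZO2 CPM by cluster for the 24 clusters with at least 20 barcodes in each library, ordered by the level over both, with exact Poisson 95% intervals. The lymphatic-like cluster 16 stands at 320 (fresh) and 297 (cryopreserved), and cluster 5 at 115 and 94.9.

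Of the 12 clusters with at least 20 PIEZO2 UMIs, 10 had a lower PIEZO2 level after cryopreservation. The interval of the ratio lay below 1 in 5 of these 10 and above 1 in 1 of the other 2. In cluster 5 the ratio was 0.822 (interval 0.723 to 0.933), in cluster 7 it was 0.652 (interval 0.480 to 0.876) and in cluster 10 it was 0.552 (interval 0.341 to 0.864). In the lymphatic-like cluster 16 the ratio was 0.928 (interval 0.773 to 1.11), which includes 1. The keratinocyte cluster 4 had the lowest ratio, 0.110 (interval 0.0287 to 0.303), but 26 of its 42 fresh UMIs were in 1 barcode. In cluster 11 the ratio was 3.45 (interval 1.14 to 14.0), with 3 of the 18 cryopreserved UMIs in the barcode with all 8 genes. The lower level in the cryopreserved library was therefore seen across several fibroblast-like clusters and not in one cluster alone. PIEZO1, the other PIEZO channel gene, went the other way in the library sums, from 46.2 to 59.9 CPM (log2 ratio 0.37, ratio interval 1.23 to 1.37).

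Likeness of pattern was measured by Pearson's r over the 27 clusters, on the level over both libraries, for genes with at least 200 UMIs. It is a description, since the clusters share libraries and differ in depth. For KRT8 the highest genes with a symbol in the files were F3, the tissue factor gene (0.65), and PTHLH, the parathyroid hormone-related protein gene (0.64), below ENSSSCG00000014198 (0.76) and ENSSSCG00000002972 (0.68), and CCER2 was at 0.63. For KRT18, CCER2 (0.95) and ENSSSCG00000002972 (0.94) came first, and 98.0% and 99.3% of their UMIs were in the barcode with all 8 genes. KRT8 itself was at 0.74 for KRT18. For SNAP25 the first was ELF3, an epithelial ETS factor gene (0.86). For PIEZO2 the first were SEMA3D (0.88), a semaphorin gene, and FLNC (0.85), a filamin gene. The KRT18 list thus follows 1 barcode and the KRT8 list does so in part. The genes named for PIEZO2 and SNAP25 had at most 5.17% of their UMIs in 1 barcode. Lower in the SNAP25 list, LDLRAD1 had 27.5% of its UMIs in 1 barcode, HSD17B2 19.2% and GJB6 17.1%. In the PIEZO2 list RORB had 7.63%. Single barcodes thus weigh on part of the SNAP25 list too.

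Related genes were taken from lists chosen with earlier results known, counted among genes with at least 20 UMIs and past a log2 ratio of 1 in size, which 2.65% of all such genes passed as higher and 2.24% as lower, with a median of -0.01. Of other simple epithelial and luminal genes, 7 of 10 were found and 6 had 20 UMIs, of which 1 was higher, 0 were lower and the median was 0.09. ELF3 was the one higher (88 and 144 UMIs, log2 ratio 1.05). CDH1 and EPCAM, which join epithelial cells, were at -0.02 and 0.09, and KRT80 and KRT7 at 0.09 and 0.18. KRT7, like KRT8 a type II keratin of simple epithelia, was spread thinly, with 285 UMIs in 242 barcodes.

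Of Merkel cell regulators and receptors, 8 of 10 were found and 3 had 20 UMIs, with 0 higher, 0 lower and a median of 0.35. PROX1 was at -0.28 and was highest in the lymphatic-like cluster 16 (871 CPM), HES6 was at 0.49 with 1 UMI in the barcode with all 8 genes, and GFI1 was at 0.35 and was highest in the T or NK-like cluster 21 (99.4 CPM). PROX1 and GFI1 thus had their highest levels in lymphatic-like and lymphocyte clusters. Of keratin filament partners, 7 of 10 were found and all 7 had 20 UMIs, with 0 higher, 0 lower and a median of 0.23. KRT5 was at 0.03, the desmosome genes DSP and PKP1 at 0.14 and 0.45, and PLEC, which links filaments to junctions, at 0.40.

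Of granule and neuropeptide genes, 13 of 14 were found and 10 had 20 UMIs, of which 2 were higher, 0 were lower and the median was 0.27. Over all genes with at least 20 UMIs, 2.65% were higher and 2.24% lower. NPY (284 and 572 UMIs, log2 ratio 1.35) and PCSK1, a prohormone convertase gene (16 and 29 UMIs, log2 ratio 1.19), were higher. PAM, which amidates peptides, was at -0.27 and PENK, the enkephalin precursor gene, at 0.32. CPE, a carboxypeptidase gene of granules, had 32.4 and 32.3 CPM. In the barcode with all 8 genes, 5 of the 13 had a UMI, namely CARTPT (11), SCG3, CPE and PAM (3 each) and PCSK1 (2). That barcode detected 2763 of the 31908 genes. PAM was near its library levels there, at 380 CPM against 409 (fresh) and 339 (cryopreserved). CARTPT, SCG3, CPE and PCSK1 were above theirs, from few UMIs.

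Of vesicle fusion genes, 12 of 14 were found and 9 had 20 UMIs, with 0 higher, 0 lower and a median of 0.02. SNAP23, the broadly used relative of SNAP25, was at 0.02, RAB3A at 0.17, STX1A at 0.35 and SYT7, a calcium sensor gene, at -0.51. SYT1 and CPLX2 had 1 UMI each in the barcode with all 8 genes, and that UMI is the only one of CPLX2 in both libraries. Of VIP and PIEZO partners, 8 of 10 were found and 6 had 20 UMIs, with 0 higher, 0 lower and a median of 0.24. Of the 8 found, only KCNMA1 had UMIs in the barcode with all 8 genes. It had 4 there (506 CPM), against 3.57 CPM in the fresh and 2.51 CPM in the cryopreserved library. VIPR2, a VIP receptor gene, was at 0.37 and was highest in the smooth muscle or pericyte-like cluster 15 (63.4 CPM), while VIPR1 had 1 UMI in all. MDFIC, whose product binds PIEZO channels, was at 0.01, and CACNA1D, a calcium channel gene, at 0.10. The receptor gene VIPR2 was thus found in 535 barcodes, against 1 barcode for its ligand gene VIP.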

How the data were processed

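Pig skin cells were profiled with a 10x Genomics 3′ kit, 1 fresh and 1 cryopreserved library. Per the file headers and the methods, the authors made the deposited UMI counts with Cell Ranger 4.0.0 and STAR 2.5.1b on Sscrofa11.1 with the Ensembl annotation. The counts are not normalized. The 8 genes and all lists were chosen with earlier results of these data known. UMIs of all barcodes were summed per library and divided by total UMIs (CPM). Intervals (95%) are exact: Poisson for levels, binomial for shares, conditional binomial for ratios. Those for levels and ratios were checked on simulated Poisson counts, which follow the model they assume. That check does not cover UMIs clumped in single barcodes. No doublet caller was run. Clusters came from Seurat 5.3.0 (R 4.3.3; anchors, 2000 variable features without the 8 genes, 30 dimensions, resolution 0.8). A cluster was named "X-like" where at least 3 markers were in 10% of its barcodes and at 2 times the median of other clusters, a rule set after first seeing the clusters. A cluster much shallower than its library also needed a marker of that list among its leading genes. These rules named 24 clusters and left 3 unnamed, of which clusters 1 and 17 lost a name by the depth condition. Named genes were the 8, up to 4 of each list by UMIs, and the 10 genes with the highest r for KRT8 and KRT18. Genes shared by KRT8 barcodes or in the barcode with all 8, the genes of other likeness lists and other list members were chosen after values were seen. Alternatives were edgeR 4.0.16 TMM factors, the maxima of the study, leaving out single barcodes, thinning and other clusterings. The limit for 0 counts is 3 counts. Promoter windows came from the RefSeq genome and annotation of Sscrofa11.1. Protein sequences were not used here. PCR copies are removed by UMIs, and depth per barcode differed between the libraries, which the intervals do not cover.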

Additional observations from a re-analysis of the deposited data

How the results depend on the processing

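No paired analysis was possible because each condition has 1 library and no result comes from a test. With TMM factors, the log2 ratios of the 7 genes with UMIs in both libraries were 0.66 (KRT8), 4.04 (KRT18), 2.15 (KRT20), 0.52 (CHGA), -0.46 (PIEZO2), 2.93 (SCG2) and 0.43 (SNAP25). Without the top barcode of each library, KRT8 moved from 0.65 to 1.02 and CHGA from 0.52 to -0.44. Without the barcode with all 8 genes, an alternative added after seeing the data, CHGA was at -0.76. With the maxima of the study, SNAP25 moved from 0.43 to 0.76 and CHGA from 0.52 to 1.49. That CHGA value came from 5 fresh and 16 cryopreserved UMIs, 10 of the latter in the barcode with all 8 genes. No ratio could be formed for KRT18 without its top barcodes, for SCG2 with the maxima, and for KRT20 and SCG2 without their top barcodes or the barcode with all 8 genes, since a library had 0 UMIs left. The lower level of PIEZO2 kept its direction in every alternative run (-0.40 to -0.48).

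Requiring 2 in place of 3 of the 6 members gave 5 fresh and 6 cryopreserved barcodes. Requiring 2 of KRT20, VIP, CHGA and SNAP25 gave 1 fresh and 1 cryopreserved barcode. The KRT8 level of cluster 11, its highest cluster, was 12.1 (fresh) and 22.2 (cryopreserved) without the top barcode of that cluster. With the maxima it was 2.98 and 25.3. Cluster 6 was at 4.54 and 7.07 without its own top barcode, and at 41.9 and 22.0 with the maxima. Treated alike in these settings, cluster 6 was above cluster 11 only with the maxima in the fresh library. The highest cluster was at 47.1 in the cryopreserved library at resolution 1.2. For KRT18, the cluster that was highest in each library was at 0 without its top barcode. In the cryopreserved library, clusters 0 and 6 still held 2 and 1 KRT18 UMIs.

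Thinned to 1000 UMIs, fresh and cryopreserved shares were 0.0997% and 0.193% for KRT8, 2.67% and 2.17% for PIEZO2, and 0.249% and 0.472% for SNAP25. They were 0% and 0.0215% for CHGA, 0% in both for SCG2 and 0% in the fresh library for KRT20. At 2 or more UMIs they were 8.70% and 4.90% for PIEZO2, 0.594% and 0.947% for SNAP25, 0.0228% and 0.0412% for CHGA, 0.247% for cryopreserved KRT8, and 0% for fresh KRT18, KRT20 and SCG2. With the maxima, SCG2 was at 0% in the fresh library. The cause of these changes was not tested, apart from thinning and the higher minimum, which detect fewer UMIs by construction.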

Other observations

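Several granule and peptide genes outside the 8 were highest in clusters of dermal and immune cells. SCG3, a secretogranin gene, was highest in the lymphatic-like cluster 16, where PIEZO2 was highest too, at 256 CPM (fresh) and 467 CPM (cryopreserved). NPY, the neuropeptide Y gene, was highest in the mast-like cluster 20, at 980 and 1661. SLC18A2, the vesicular monoamine transporter gene of mast cells and neurons, was also highest there, at 139 and 100. PENK was highest in the fibroblast-like cluster 22, at 309 and 384. PCSK2, a prohormone convertase gene, was highest in the endothelial-like cluster 3, at 36.0 and 25.2. These clusters were the highest over both libraries together, and no test was made with 1 library per condition.

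CARTPT had 0 fresh and 12 cryopreserved UMIs, of which 11 were in the barcode with all 8 genes. TAC1, the substance P precursor gene, had 3 fresh and 11 cryopreserved UMIs in 5 barcodes, and 64.3% of them were in 1 barcode.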
